A study of Mus musculus with 32 samples.

Results

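The loss of the mitochondrial protease OMA1 was compared between hearts that carry 1 of 2 neighbouring mutations of CHCHD10 (C10), G58R or S59L. The comparison used 16 of the 32 heart arrays of the series, which were chosen by their labels alone: every C10G58R array, taken at 14 weeks, and every C10S59L array, taken at 20 weeks. All mutant mice were heterozygous for the C10 allele. In each mutant, 4 OMA1-/- hearts stood against 4 OMA1+/- hearts, each from a different animal, so the controls also lacked 1 copy of OMA1. For each gene the OMA1 effect is the mean log2 value of the OMA1-/- hearts minus that of the OMA1+/- hearts, and the difference is the OMA1 effect in C10G58R minus the OMA1 effect in C10S59L. The other 16 arrays, of C10WT hearts that were OMA1+/- or OMA1-/- at the same 2 ages, are given beside the mutant values. The C10G58R allele was made by genome editing on C57Bl6J. Most C10G58R OMA1-/- pups died soon after birth in the study, so the 4 C10G58R OMA1-/- hearts came from survivors. Each mutant was examined at 1 age only, and mutation, age and cohort cannot be told apart in the difference.

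CHCHD10 is a small protein of the mitochondrial intermembrane space. OMA1 is a protease of the inner membrane that is switched on by mitochondrial stress. It cleaves OPA1, a fusion protein of the inner membrane, and DELE1, whose cleaved form leaves the mitochondrion and starts the integrated stress response (ISR) through the kinase HRI. The ISR slows translation in general and raises translation of the transcription factor ATF4, which turns on genes for amino acid uptake, amino acid synthesis and the charging of tRNA.

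The deposited values were gene-level log2 intensities, and 19505 genes with a symbol were tested. The median over genes lay between 6.54 and 6.75 on all 32 arrays, and pairs of mutant arrays correlated at 0.94 to 0.99 over genes. A level of 6.59, below which most olfactory and vomeronasal receptor genes lie, was taken as background, and 10462 genes were above it in at least 1 mutant group. As a check of the labels, the Oma1 value was 10.28 to 10.64 in C10G58R OMA1+/- and 9.83 to 10.14 in C10G58R OMA1-/- hearts, which did not overlap. In C10S59L it was 9.36 to 10.26 in OMA1+/- and 8.93 to 9.68 in OMA1-/- hearts, and these overlapped. Neither Oma1 effect passed the test (-0.42, adjusted p = 0.34, and -0.56, adjusted p = 0.28), and where the probes lie relative to the deleted part was not known. The heart muscle markers of a list of 9 genes, Myh6 among them, averaged 16.44 to 18.05 on the 16 mutant arrays.

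The OMA1 effects of 732 genes, 3.75% of those tested, differed between the mutants at an adjusted p below 0.05 (limma, Benjamini-Hochberg over all genes), and 3090 differed at an unadjusted p below 0.05. The difference was positive for 552 genes (2.83%) and negative for 180 (0.923%). Of the 732, 536 had a positive OMA1 effect in C10G58R and a negative one in C10S59L, 175 had the reverse, 13 were positive in both and 8 negative in both. Genes chosen for a large difference tend to have opposite signs by that choice, so these counts describe the 732 genes and support nothing further. Within C10G58R, 548 genes passed (2.81%), 385 of them higher (1.97%) and 163 lower (0.836%) in OMA1-/- hearts. Within C10S59L, 141 genes passed (0.723%), 32 of them higher (0.164%) and 109 lower (0.559%). At an unadjusted p below 0.05 the counts were 2977 in C10G58R and 2169 in C10S59L. The 732 genes included 309 that passed only in C10G58R, 81 only in C10S59L, 29 in both and 313 in neither. In the gene lists below, counts of members that rose, fell or had a positive or negative difference are of members that passed the test.

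Across all 19505 genes the OMA1 effects in the 2 mutants, which share no array, had a Pearson correlation of -0.21, and 10818 genes had effects of opposite sign, 5253 of them positive in C10G58R and negative in C10S59L and 5565 the reverse. The correlation is a description over genes, which are not independent replicates. Of the 548 genes that passed in C10G58R, 401 had an effect of the opposite sign in C10S59L. Of the 141 that passed in C10S59L, 109 had an effect of the opposite sign in C10G58R. The call in C10S59L rested on few hearts: it held for 24 genes without OMA1+/- replicate 3, for 26 without OMA1+/- replicate 4, for 263 without OMA1-/- replicate 1 and for 255 without OMA1-/- replicate 4. It also rested on the spread shared with the C10G58R arrays: with each mutant fitted alone, 14 genes passed in C10S59L. The count for the difference was 448 without C10S59L OMA1+/- replicate 3, 461 without C10G58R OMA1-/- replicate 1 and 1245 without C10S59L OMA1-/- replicate 4, and 410 of the 732 genes passed in all 16 fits that left out 1 array.

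**Figure D1:**
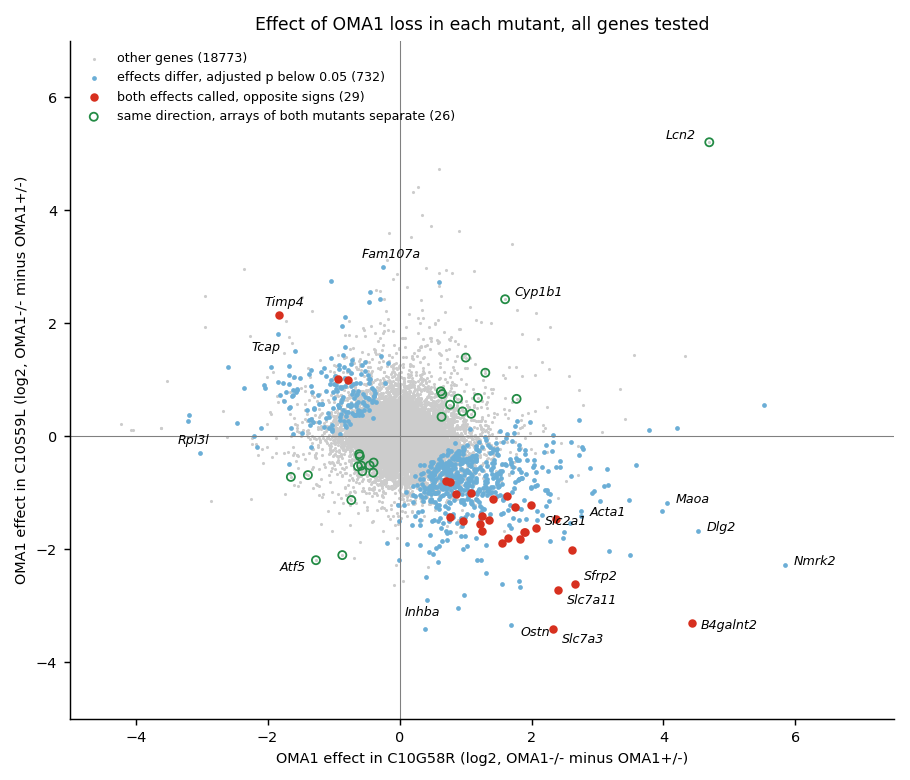
OMA1 effect in C10G58R (x axis) against OMA1 effect in C10S59L (y axis), in log2 units, for each of the 19505 genes tested. Blue points mark the 732 genes whose effects differed, red points the 29 genes that passed in both mutants with opposite signs, and green circles the 26 genes moved the same way with no overlap of arrays in either mutant. Most blue points lie at the lower right, higher after OMA1 loss in C10G58R and lower in C10S59L.

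Both OMA1 effects passed the test for 30 genes, which are 5.47% of the C10G58R genes and 21.3% of the C10S59L genes. The signs were opposite for 29 of them, and with each mutant fitted alone for 1 gene. B4galnt2, Sfrp2, Slc7a11, Slc7a3, Uck2, Dctd, Comtd1, Lhfpl2, Fgf21, Slc2a1, Inpp5j, Pappa, Adm2, Bcat1, Shmt2, Sars, Niban1, Gars, Slc15a3, Dhx37, Hexa, Slc25a39, Riox2, Bysl, Ino80e and Derl1 rose in C10G58R and fell in C10S59L, and Timp4, Fam214a and Map1lc3a fell in C10G58R and rose in C10S59L. The 1 gene with the same sign was Lcn2. A rule on single arrays, that all 4 OMA1-/- arrays lie beyond all 4 OMA1+/- arrays, was also applied with no test. It was met in C10G58R by 1267 genes with OMA1-/- higher (6.5%) and 872 with OMA1-/- lower (4.47%), and in C10S59L by 402 higher (2.06%) and 625 lower (3.2%). It was met in both mutants by 202 genes, 9.44% of those in C10G58R and 19.7% of those in C10S59L, and the direction was opposite for 176 and the same for 26. Of the 176, 143 were higher in C10G58R and lower in C10S59L, and 33 the reverse.

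The gene with the largest pair of opposite effects was B4galnt2, a glycosyltransferase that adds N-acetylgalactosamine to glycans. In C10G58R its log2 value was 6.54, 7.41, 7.23 and 5.39 in the OMA1+/- hearts and 11.25, 10.51, 11.18 and 11.35 in the OMA1-/- hearts. The C10S59L values were 10.10, 10.93, 11.80 and 11.75 in the OMA1+/- hearts and 8.28, 5.99, 8.24 and 8.80 in the OMA1-/- hearts. The groups did not overlap in either mutant, and C10G58R OMA1-/- and C10S59L OMA1+/- hearts were the high groups, while C10WT hearts lay between 4.09 and 6.03. B4galnt2 rose by 4.43 ± 0.55 (SE from the fit of all 16 arrays, n = 4 and 4 hearts, adjusted p = 0.000408) in C10G58R, a 21.6-fold change. It fell by 3.31 ± 0.55 (adjusted p = 0.0109) in C10S59L, a 9.94-fold change, and this fall did not pass with each mutant fitted alone. The difference was 7.75 ± 0.77 (adjusted p = 0.000102). Sfrp2, a secreted binder of WNT proteins, was 8.88 to 9.41 in C10G58R OMA1+/- and 11.00 to 12.63 in OMA1-/- hearts, and 11.06 to 13.10 in C10S59L OMA1+/- and 8.62 to 10.10 in OMA1-/- hearts. Again neither pair of groups overlapped, and the effects were 2.66 ± 0.49 (adjusted p = 0.00628) and -2.61 ± 0.49 (adjusted p = 0.0243). The fall in C10S59L no longer passed without OMA1+/- replicate 3 or 4 for B4galnt2 (-2.70 at the smallest), and without OMA1+/- replicate 2 or 3 or OMA1-/- replicate 3 for Sfrp2 (-2.27).

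Other genes of the 29 were Dctd, Uck2, Slc2a1, Comtd1 and Lhfpl2. Dctd, a deaminase of deoxycytidylate, was 8.29, 8.77, 8.05 and 7.51 in C10G58R OMA1+/- and 10.56, 10.31, 9.81 and 9.22 in C10G58R OMA1-/- hearts. In C10S59L it was 9.04, 8.67, 8.84 and 8.97 in OMA1+/- and 7.46, 6.70, 6.79 and 7.25 in OMA1-/- hearts, the latter within the C10WT range of 6.17 to 7.52 at the 2 ages. Dctd rose by 1.82 ± 0.29 (adjusted p = 0.0024) and fell by 1.83 ± 0.29 (adjusted p = 0.00781). Dctd and Slc7a11 were the 2 of the 29 genes whose opposite calls both held in all 16 fits that left out 1 array, and both signs were kept for all 29 genes in each of those fits. Uck2, a kinase of uridine and cytidine, had a difference of 4.62 ± 0.63 (adjusted p = 0.000641), and no C10G58R OMA1-/- heart was below 14.09 or OMA1+/- heart above 12.56. Slc2a1, the glucose carrier GLUT1, was 11.19 to 12.49 in C10G58R OMA1+/- and 13.17 to 14.52 in OMA1-/- hearts, and 13.56 to 14.36 in C10S59L OMA1+/- and 11.84 to 12.77 in OMA1-/- hearts. Its OMA1 effects were 2.07 ± 0.32 (adjusted p = 0.002) and -1.63 ± 0.32 (adjusted p = 0.0301). Comtd1 and Lhfpl2 had differences of 3.60 and 3.61 (adjusted p = 0.000477 and 0.00052). The fall in C10S59L was lost on omission of 11 of the 16 arrays for Uck2 (-1.68 to -2.33), of 4 for Slc2a1 (-1.48 to -1.79) and Comtd1, and of 6 for Lhfpl2, while no difference of these 5 genes was lost.

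**Figure D2:**
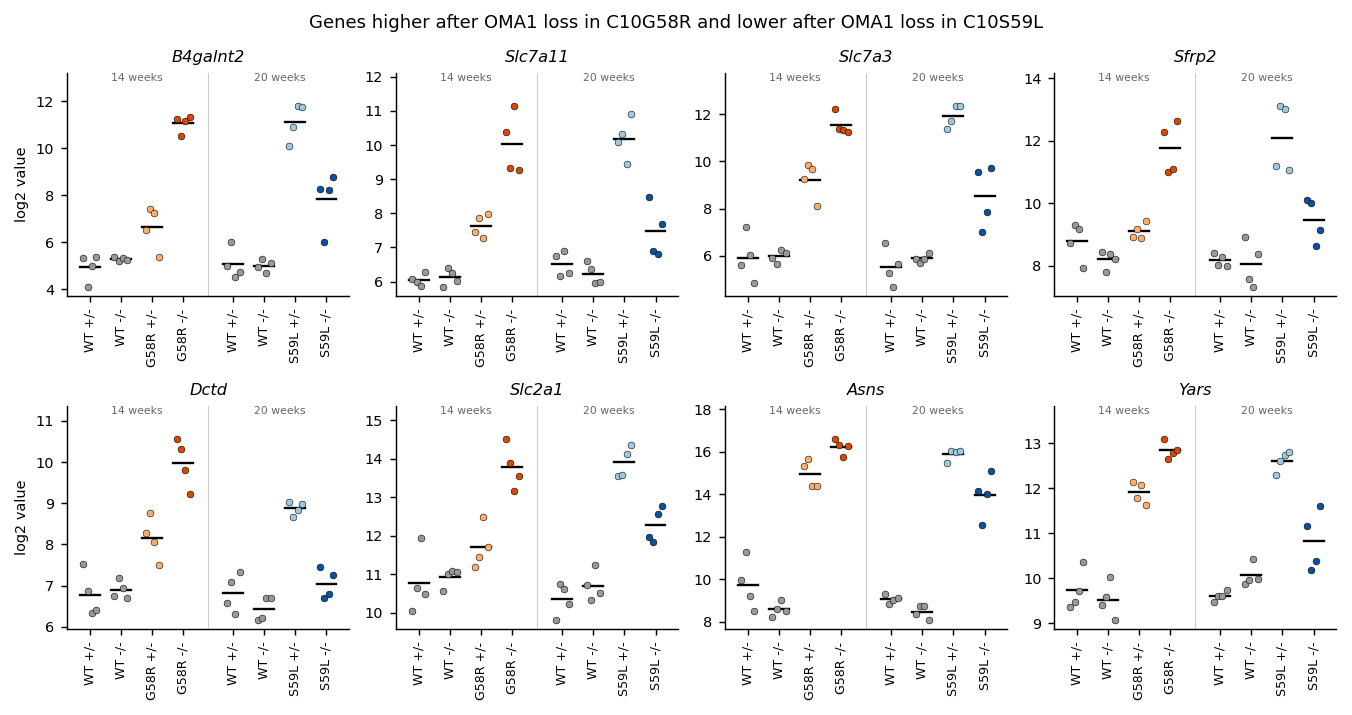
Log2 value of 8 genes on each of the 32 arrays (points) with the mean of each group (bars), by C10 and OMA1 genotype, 14-week hearts at the left and 20-week hearts at the right of each panel. In each panel the C10G58R OMA1-/- hearts lie above the C10G58R OMA1+/- hearts and the C10S59L OMA1-/- hearts below the C10S59L OMA1+/- hearts.

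Amino acid transporters made up one of the groups with the most members that differed. Of 13 transporters on a list, 9 passed with a higher OMA1 effect in C10G58R than in C10S59L and none with a lower one. Of all genes, 2.83% and 0.923% did so. In C10G58R 5 passed as higher and none as lower, against 1.97% and 0.836% of all genes. In C10S59L none passed as higher and 6 as lower, against 0.164% and 0.559%. By sign alone, 12 were higher in C10G58R and 11 lower in C10S59L. The median OMA1 effect of the list was 0.89 in C10G58R and -1.28 in C10S59L, where the medians over all genes were -0.01 and 0. Slc7a11, the cystine importer, was 7.44, 7.87, 7.28 and 7.97 in C10G58R OMA1+/- and 10.39, 9.34, 11.14 and 9.26 in C10G58R OMA1-/- hearts. It was 10.08, 10.32, 9.44 and 10.92 in C10S59L OMA1+/- and 8.49, 6.89, 6.82 and 7.68 in C10S59L OMA1-/- hearts. The groups were apart in both mutants, and the 2 lowest C10S59L OMA1-/- hearts were at or below the highest C10WT value of 6.91. Slc7a11 rose by 2.40 ± 0.43 (adjusted p = 0.0055) and fell by 2.72 ± 0.43 (adjusted p = 0.00719). Slc7a3, a carrier of cationic amino acids, had a difference of 5.74 ± 0.72 (adjusted p = 0.000398). Its C10G58R OMA1-/- hearts were at 11.23 to 12.23 against 8.13 to 9.83, and its C10S59L OMA1-/- hearts at 7.01 to 9.72 against 11.38 to 12.34. Slc7a1, of the same carrier family, and Slc6a9, a glycine carrier, differed by 2.76 ± 0.38 (adjusted p = 0.000715) and 2.01 ± 0.31 (adjusted p = 0.00178). Both fell in C10S59L, by 1.76 and 1.28, and their effects in C10G58R, 0.99 and 0.73, did not pass the test. The rise of Slc7a3 was lost without C10G58R OMA1+/- replicate 1 or 4 or OMA1-/- replicate 1 (1.97 at the smallest), and the fall of Slc6a9 without C10S59L OMA1+/- replicate 3 or 4.

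ATF4 binds, with C/EBP partners, an element whose core letters are TGATGNAA, and the RefSeq promoters (250 bases before to 50 after the start of a gene, build GRCm38.p6) of the genes that differed were searched for it on both strands. It was found in 620 of 15691 promoters of tested genes (3.95%), in 21 of 447 promoters of the genes with a positive difference (4.7%) and in 6 of 141 of those with a negative difference (4.26%). Among the opposite genes, 3 of the 21 with a promoter that rose in C10G58R and fell in C10S59L held it (14.3%), namely Fgf21, Gars and Slc7a11. It was present in 4 of 10 promoters of the cytosolic aminoacyl-tRNA synthetases (40%), 2 of 8 of the amino acid transporters (25%), 1 of 11 of the serine, one-carbon, proline and asparagine list (9.09%, Asns) and 0 of 14 of the mitochondrial synthetases. The promoters of Slc7a11 (chr3:50443564-50443863, minus strand), Gars (chr6:55037751-55038050, plus strand), Yars (chr4:129189653-129189952, plus strand) and Asns (chr6:7693160-7693459, minus strand) are printed as examples of promoters with a match from the 3 amino acid groups described here. Capitals mark each match, and in Gars and at the second match of Slc7a11 the match is on the opposite strand.
Slc7a11: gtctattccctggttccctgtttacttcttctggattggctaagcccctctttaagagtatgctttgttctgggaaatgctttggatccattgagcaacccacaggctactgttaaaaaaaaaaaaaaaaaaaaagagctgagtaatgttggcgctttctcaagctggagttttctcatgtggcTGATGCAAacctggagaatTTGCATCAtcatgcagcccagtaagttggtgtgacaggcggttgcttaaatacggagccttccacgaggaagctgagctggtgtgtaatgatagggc
Gars: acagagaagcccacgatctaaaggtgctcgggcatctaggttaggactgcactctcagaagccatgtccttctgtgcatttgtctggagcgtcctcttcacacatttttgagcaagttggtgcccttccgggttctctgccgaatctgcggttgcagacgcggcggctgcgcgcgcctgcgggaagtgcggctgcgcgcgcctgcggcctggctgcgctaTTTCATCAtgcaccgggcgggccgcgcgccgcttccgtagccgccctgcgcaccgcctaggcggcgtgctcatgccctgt
Yars: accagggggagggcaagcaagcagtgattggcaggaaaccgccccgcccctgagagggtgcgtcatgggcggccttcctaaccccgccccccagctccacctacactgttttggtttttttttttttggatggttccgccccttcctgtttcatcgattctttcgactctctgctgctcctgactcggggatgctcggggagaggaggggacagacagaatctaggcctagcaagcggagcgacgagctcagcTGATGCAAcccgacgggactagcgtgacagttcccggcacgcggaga
Asns: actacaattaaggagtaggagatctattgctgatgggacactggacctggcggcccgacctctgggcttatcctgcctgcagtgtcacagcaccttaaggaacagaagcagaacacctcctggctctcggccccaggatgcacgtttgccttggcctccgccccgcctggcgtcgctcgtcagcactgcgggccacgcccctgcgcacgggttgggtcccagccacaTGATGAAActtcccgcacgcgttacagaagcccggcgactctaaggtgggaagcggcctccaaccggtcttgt
A match describes the letters only and does not show that a factor was bound there.

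Enzymes of amino acid synthesis showed smaller effects in C10G58R and larger ones in C10S59L. Of 13 genes of serine, one-carbon, proline and asparagine synthesis, 8 passed with a positive difference and none with a negative one. Of all genes, 2.83% and 0.923% did so. In C10S59L 8 passed as lower and none as higher, against 0.559% and 0.164% of all genes. In C10G58R 2 passed as higher and none as lower, against 1.97% and 0.836%. By sign alone, 11 were lower in C10S59L and 10 higher in C10G58R. The list median was 0.49 in C10G58R and -1.93 in C10S59L, and the mean of the list was 9.95 to 10.35 in C10G58R OMA1-/- against 9.19 to 9.75 in OMA1+/- hearts and 8.28 to 9.54 in C10S59L OMA1-/- against 10.27 to 10.70 in OMA1+/- hearts. This list holds genes that the study itself named from these hearts, so its direction is not independent evidence. Aldh18a1, the first enzyme of proline synthesis, was 9.97 to 10.87 in C10G58R OMA1+/- and 11.21 to 11.38 in OMA1-/- hearts. The C10S59L values were 11.70, 11.87, 12.48 and 11.94 in OMA1+/- and 9.94, 8.73, 7.97 and 10.08 in OMA1-/- hearts, so the groups did not overlap in either mutant. It fell in C10S59L by 2.81 ± 0.36 (adjusted p = 0.00204), a 7.03-fold change, and its effect in C10G58R was 0.98 ± 0.36 (adjusted p = 0.18). With each mutant fitted alone, the fall did not pass and the effect in C10G58R did. Phgdh, the first enzyme of serine synthesis, fell by 2.06 ± 0.28 in C10S59L (adjusted p = 0.00225), while its effect in C10G58R was 0.45 (adjusted p = 0.49). The differences were 3.79 ± 0.51 for Aldh18a1 and 2.5 ± 0.39 for Phgdh (adjusted p = 0.000627 and 0.00183).

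Shmt2, which makes one-carbon units in mitochondria, rose by 1.25 ± 0.31 in C10G58R (adjusted p = 0.0403) and fell by 1.69 ± 0.31 in C10S59L (adjusted p = 0.0241). Mthfd1l, a mitochondrial enzyme of the same pathway, had a difference of 1.65 ± 0.28 (adjusted p = 0.00305). Mthfd2 did not share the pattern: it was 13.92 to 14.64 in C10G58R OMA1+/- and 13.79 to 14.74 in OMA1-/- hearts, it fell by 2.28 ± 0.48 in C10S59L (adjusted p = 0.0399), and the difference of 2.23 ± 0.68 missed the threshold (adjusted p = 0.085), though it passed without C10S59L OMA1-/- replicate 2 or 4 (1.54 to 2.54 over all omissions). Asns, asparagine synthetase, was 15.33, 15.65, 14.37 and 14.37 in C10G58R OMA1+/- and 16.60, 16.31, 15.77 and 16.28 in OMA1-/- hearts, and 15.49, 16.01, 15.98 and 16.01 in C10S59L OMA1+/- and 14.14, 12.53, 13.99 and 15.11 in OMA1-/- hearts. The groups were apart in both mutants, and all 16 values were above the C10WT maximum of 11.29. The Asns difference was 3.24 ± 0.58 (adjusted p = 0.00455), with effects of 1.31 in C10G58R (adjusted p = 0.109) and -1.93 in C10S59L (adjusted p = 0.0412). On omission of 1 array the rise of Shmt2 was lost in 9 of 16 fits and its fall in 2, the fall of Asns and that of Mthfd2 in 9 each, and the fall of Mthfd1l in 1 (without C10S59L OMA1+/- replicate 3). No difference given here as past the threshold was lost.

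The cytosolic aminoacyl-tRNA synthetases, which charge tRNA with amino acids for translation, had the largest share of differing members among the lists described here. Of 17 measured, 13 passed with a positive difference and none with a negative one, against 2.83% and 0.923% of all genes. All 17 had a positive OMA1 effect in C10G58R, of 0.22 to 1.24, and 16 had a negative one in C10S59L. Only 3 passed the test in C10G58R and 6 in C10S59L, where 2.81% and 0.723% of all genes did. The median difference was 2.11, against -0.02 over all genes. The list mean was 12.44 to 12.78 in C10G58R OMA1-/- and 11.55 to 12.01 in OMA1+/- hearts, and 10.83 to 12.09 in C10S59L OMA1-/- and 12.32 to 12.63 in OMA1+/- hearts, so the groups did not overlap in either mutant. Gars, the glycyl enzyme, rose by 1.22 ± 0.31 (adjusted p = 0.0411) and fell by 1.56 ± 0.31 (adjusted p = 0.0297). Sars, the seryl enzyme, rose by 1.24 ± 0.31 (adjusted p = 0.0403) and fell by 1.41 ± 0.31 (adjusted p = 0.0473). For Yars, the tyrosyl enzyme, the C10S59L values were 12.29, 12.60, 12.73 and 12.79 in OMA1+/- and 11.15, 10.18, 10.39 and 11.60 in OMA1-/- hearts, and the C10G58R values 12.14, 11.79, 12.08 and 11.63 in OMA1+/- and 13.09, 12.65, 12.77 and 12.84 in OMA1-/- hearts. These groups were also apart, and the difference was 2.70 ± 0.37 (adjusted p = 0.000627). Eprs, the enzyme for glutamate and proline, differed by 2.40 ± 0.42 (adjusted p = 0.00393). Leaving out 1 array lost the rise of Gars in 10 of 16 fits, that of Sars in 12, the fall of Sars in 13, that of Gars in 3 and that of Eprs in 12, and lost none of the differences of these 4 genes.

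The mitochondrial aminoacyl-tRNA synthetases shared this pattern only in part. Of 16 measured, 12 of them above background, 14 had a negative OMA1 effect in C10S59L and 9 a positive one in C10G58R. None of the 16 passed in either mutant or in the difference, at an adjusted p below 0.05 in limma. Of all genes 3.75% passed in the difference, so none of 16 says little about the list. Their median OMA1 effect was 0.02 in C10G58R and -0.28 in C10S59L. Their list mean was 8.21 to 8.49 in all 8 C10G58R hearts, against 8 to 8.26 in C10S59L OMA1+/- and 7.46 to 8.19 in C10S59L OMA1-/- hearts, which overlapped.

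**Figure D3:**
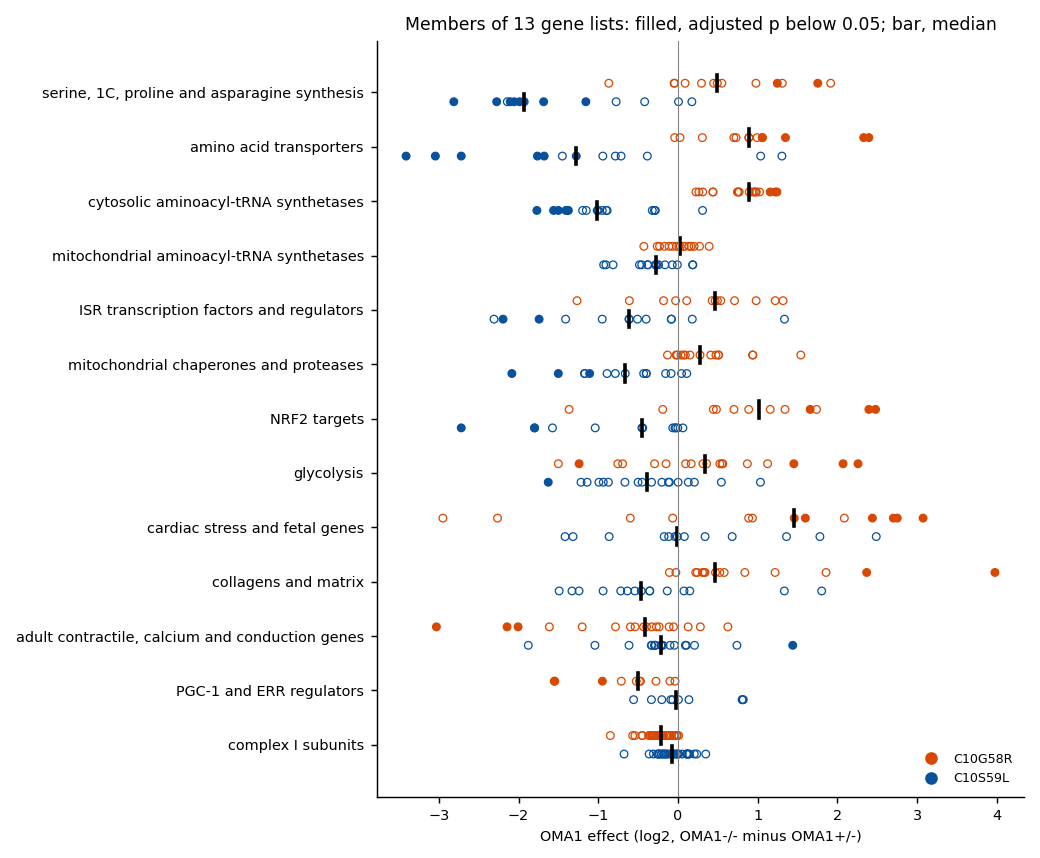
OMA1 effect (x axis, log2 units) of each measured member of 13 gene lists (rows), in C10G58R (orange) and C10S59L (blue). Filled points passed the test (adjusted p below 0.05), open points did not, and the vertical bars are list medians. The medians of amino acid synthesis, amino acid transport and cytosolic tRNA synthetases lie to the right of 0 in C10G58R and to the left in C10S59L.

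Of 13 measured transcription factors and regulators of the ISR, 1 had a difference that passed, 2 fell in C10S59L and none passed in C10G58R. Over all genes 3.75% passed in the difference, 0.559% fell in C10S59L and 2.81% passed in C10G58R. So few passing genes say little about a list of this size. The list medians were 0.47 in C10G58R and -0.61 in C10S59L. Atf4 was 14.21, 15.13, 14.82 and 14.35 in C10G58R OMA1+/- and 15.52, 14.62, 14.74 and 15.51 in OMA1-/- hearts, which overlapped, and 15.63, 15.63, 15.89 and 15.89 in C10S59L OMA1+/- and 14.44, 13.29, 13.16 and 15.18 in OMA1-/- hearts, which did not. It fell by 1.74 ± 0.37 in C10S59L (adjusted p = 0.0389), its effect in C10G58R was 0.47 (adjusted p = 0.62), and the difference was 2.21 ± 0.52 (adjusted p = 0.0244). The Atf4 difference no longer passed on omission of C10G58R OMA1+/- replicate 1 or 4, C10G58R OMA1-/- replicate 1 or 4, or C10S59L OMA1+/- replicate 3 or 4 (1.92 to 2.6 over all omissions), and its fall was lost in 9 fits. Ddit3, which encodes the stress factor CHOP, had effects of 0.54 and -0.95 and a difference of 1.49 ± 0.61 (adjusted p = 0.23). Trib3, a pseudokinase induced by ATF4, had a difference of 2.63 ± 0.75 (adjusted p = 0.063), which passed without C10G58R OMA1-/- replicate 2 or C10S59L OMA1-/- replicate 4. Cebpg, a partner of ATF4, had effects of -0.18 and -0.61. Chchd10 itself, the mutated gene, was 16.39 to 16.92 in C10G58R OMA1+/- and 16.35 to 16.98 in OMA1-/- hearts, and 16.60 to 17.03 and 15.49 to 16.30 in the C10S59L groups. Its difference of 1.08 ± 0.29 (adjusted p = 0.0457) was lost in 12 of 16 fits that left out 1 array.

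Of 10 measured hormones and secreted stress factors, 3 passed with a positive difference and none with a negative one. Of all genes, 2.83% and 0.923% did so. In C10G58R 3 passed as higher, against 1.97% of all genes. In C10S59L 1 passed as higher and 3 as lower, against 0.164% and 0.559%. The list medians were 1.11 in C10G58R and 0.26 in C10S59L. Fgf21, a stress hormone, was 5.13 to 5.72 in C10G58R OMA1+/- hearts, all below background, and 7.57, 5.87, 7.84 and 6.92 in OMA1-/- hearts. In C10S59L it was 6.21, 6.74, 7.51 and 7.71 in OMA1+/- and 5.81, 4.75, 4.69 and 5.72 in OMA1-/- hearts, the latter all below background. Taken against the background level, Fgf21 rose by at least 0.46 in C10G58R and was lower by at least 0.45 in C10S59L (fitted effects, adjusted p = 0.0358 and 0.0495). Inhba, a subunit of activins and inhibins, was 9.91, 9.34, 9.60 and 10.21 in C10S59L OMA1+/- and 7.02, 6.93, 6.78 and 6.72 in C10S59L OMA1-/- hearts, and 6.25 to 7.37 in all 8 C10G58R hearts. Only the C10S59L OMA1+/- hearts were high. Inhba fell by 2.91 ± 0.21 in C10S59L (adjusted p = 1.86e-06), and its effect in C10G58R was 0.41 (adjusted p = 0.37). The Inhba difference was 3.31 ± 0.29 (adjusted p = 5.05e-05). Ostn, a secreted peptide of muscle, differed by 5.04 ± 1.03 (adjusted p = 0.00958), with C10S59L OMA1-/- values of 13.02, 8.64, 11.81 and 13.03 against 13.83 to 15.73 in OMA1+/- hearts. Its fall in C10S59L of 3.35 (adjusted p = 0.0424) was lost in 11 of 16 fits, and without OMA1-/- replicate 2 the effect was -2.36. The calls of Fgf21 were lost in 6 fits in C10G58R and 11 in C10S59L, and neither the difference of Fgf21 nor that of Inhba or Ostn was lost.

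Mitochondrial chaperones and proteases fell in C10S59L in 3 of 15 cases and none passed in C10G58R, and 4 had a positive difference. Of all genes, 0.559%, 2.81% and 2.83% did so. Hspd1, the chaperonin HSP60, was 14.95 to 15.27 in all 8 C10G58R hearts, 14.70 to 15.20 in C10S59L OMA1+/- and 12.84 to 14.20 in C10S59L OMA1-/- hearts. It fell by 1.5 ± 0.25 (adjusted p = 0.0116). Its cochaperone Hspe1 fell by 1.11 ± 0.24 (adjusted p = 0.0429), and the protease Lonp1 by 2.09 ± 0.43 (adjusted p = 0.0355). Htra2, a protease of the intermembrane space, differed by 2.10 ± 0.39 (adjusted p = 0.00504), with effects of 0.94 in C10G58R and -1.17 in C10S59L that did not pass. On omission of 1 array the differences of Hspd1 (1.49 ± 0.35) and Lonp1 (2.6 ± 0.61, each with adjusted p = 0.0244) were lost in 5 and 4 fits, those of Hspe1 and Htra2 in none, and the falls of Hspd1, Lonp1 and Hspe1 in 1, 6 and 12 fits. Of 12 measured targets of NRF2, the regulator of antioxidant genes, 4 passed with a positive difference. In C10G58R 3 passed as higher and in C10S59L 2 as lower. Of all genes, 2.83%, 1.97% and 0.559% did so. The counts of 4, 3 and 2 each include Slc7a11, which was also counted among the amino acid transporters. Srxn1, a sulfiredoxin, was 8.65 to 9.84 in C10G58R OMA1+/- and 10.85 to 11.98 in OMA1-/- hearts, and rose by 2.48 ± 0.59 (adjusted p = 0.0285). In C10S59L Srxn1 was at 10.50 to 14.55 in OMA1-/- and 14.27 to 15.30 in OMA1+/- hearts, which overlapped. Txnrd1, a thioredoxin reductase, rose by 1.66 ± 0.36 in C10G58R (adjusted p = 0.0168), its effect in C10S59L was -1.58 (adjusted p = 0.0504), and its difference was 3.23 ± 0.50 (adjusted p = 0.00178). Abcc4, an exporter of cyclic nucleotides, differed by 2.96 ± 0.51 (adjusted p = 0.00347). Leaving out 1 array lost the rise of Srxn1 in 6 fits, that of Txnrd1 in 2 and the fall of Abcc4 in C10S59L (-1.80) in 5.

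Several of the largest positive differences were in genes whose rise in C10G58R passed the test and whose effect in C10S59L did not. Nmrk2, a kinase of nicotinamide riboside that feeds NAD synthesis in muscle, was 8.09, 6.20, 6.73 and 7.11 in C10G58R OMA1+/- and 14.37, 13.16, 11.02 and 12.95 in OMA1-/- hearts. The C10S59L values were 11.17, 9.68, 12.06 and 12.59 in OMA1+/- and 9.90, 7.27, 8.11 and 11.12 in OMA1-/- hearts, which overlapped. Nmrk2 rose by 5.84 ± 0.81 (adjusted p = 0.000856), a 57.3-fold change, and its difference was 8.11 ± 1.14 (adjusted p = 0.000745), while its effect in C10S59L of -2.28 did not pass (adjusted p = 0.25). Of 11 genes of NAD synthesis, only Nmrk2 had a difference that passed, where 3.75% of all genes did. Dlg2, a scaffold protein, rose by 4.52 ± 0.58 (adjusted p = 0.000521) and Maoa, which breaks down catecholamines and serotonin, by 4.05 ± 0.58 (adjusted p = 0.00115). Their differences were 6.20 ± 0.82 and 5.23 ± 0.82. Otub2, a deubiquitinase, differed by 5.59 ± 0.71 and Meox1, a homeobox factor, by 5.21 ± 0.67 (adjusted p = 0.000453 for both). Meox1 was 6.07 to 6.81 in C10G58R OMA1+/- and 9.42 to 9.74 in OMA1-/- hearts. Timp1, an inhibitor of matrix proteases, was 7.77, 5.97, 5.83 and 6.33 in C10G58R OMA1+/- and 13.06, 11.09, 8.67 and 9 in OMA1-/- hearts, with a difference of 5.31 ± 1.23 (adjusted p = 0.0212). The differences of these 6 genes and the rises of the first 5 passed without any 1 array, and the rise of Timp1 (3.98 ± 0.87) was lost in 4 fits.

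Stress genes of heart muscle passed the test mainly in C10G58R. Of 13 cardiac stress and fetal genes, 6 rose in C10G58R, none passed in C10S59L and 2 had a difference that passed. Of all genes, 1.97%, 0.723% and 3.75% did so. Acta1, skeletal actin, was 14.47, 15.22, 15.32 and 13.43 in C10G58R OMA1+/- and 17.60, 17.72, 16.82 and 17.30 in OMA1-/- hearts, and 13.81 to 14.54 in C10S59L OMA1+/- and 11.79 to 13.23 in OMA1-/- hearts. The groups were apart in both mutants, in opposite directions. Acta1 rose by 2.75 ± 0.38 in C10G58R (adjusted p = 0.000859), its effect in C10S59L was -1.42 (adjusted p = 0.11), and the difference was 4.17 ± 0.54 (adjusted p = 0.000485). Rcan1, an inhibitor of calcineurin, differed by 3.40 ± 0.79 (adjusted p = 0.022), but not without C10G58R OMA1+/- replicate 4, C10G58R OMA1-/- replicate 1 or C10S59L OMA1+/- replicate 3 (2.86 at the smallest). Nppb, the natriuretic peptide BNP, rose by 3.07 ± 0.60 in C10G58R (adjusted p = 0.00908), an 8.43-fold change, and was 14.63 to 15.84 in C10S59L OMA1+/- and 14.37 to 16.5 in OMA1-/- hearts, which overlapped. Myh7, the fetal myosin heavy chain, rose by 2.70 ± 0.59 (adjusted p = 0.0178), and was 15.93 to 17.22 and 14.80 to 17.41 in the C10S59L groups. The differences of Nppb and Myh7 missed the threshold (adjusted p = 0.061 and 0.066), so their effects are not shown to differ between the mutants. Nppa, the peptide ANP, was between 16.98 and 19.43 on all 16 arrays and passed in neither mutant. Of 15 collagens and matrix genes, 3 had a positive difference, against 2.83% of all genes. Tnc, tenascin C, was below background in all 4 C10G58R OMA1+/- hearts and rose there by at least 0.69 (fitted effect, adjusted p = 0.00231), and Col8a1, a short-chain collagen, was below background in the same 4 hearts, was higher by at least 0.81 in C10G58R OMA1-/- hearts (fitted effect, adjusted p = 0.10) and had a fitted difference with adjusted p = 0.0151, which was lost relative to C10WT and without the hearts high in adipocyte markers. Without C10G58R OMA1+/- replicate 4 or C10G58R OMA1-/- replicate 1, 2 or 4, the rise of Myh7 was lost.

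Genes of glycolysis moved in part. Of 18, 4 had a positive and 1 a negative difference, against 2.83% and 0.923% of all genes. Besides Slc2a1, values are given here for 2 of them. Pgam1, phosphoglycerate mutase, had a difference of 2.45 ± 0.34 (adjusted p = 0.000697), and Pfkp, a phosphofructokinase, one of 3.40 ± 0.73 (adjusted p = 0.0135). Pfkp was 10.84 to 12.07 in C10G58R OMA1+/- and 13.46 to 13.98 in OMA1-/- hearts, while in C10S59L its groups overlapped (13.94 to 14.87 and 11.53 to 14.87). Sqstm1, the autophagy receptor p62, rose by 1.52 ± 0.31 in C10G58R (adjusted p = 0.0113), and its difference was 2.14 ± 0.43 (adjusted p = 0.00915). Gadd45a, a growth arrest gene, differed by 3.37 ± 0.72 (adjusted p = 0.0129). Myc, a growth regulator, was 7.71, 8.97, 9.02 and 8.34 in C10G58R OMA1+/- and 10.65, 10.31, 9.72 and 10.71 in OMA1-/- hearts and differed by 3.14 ± 0.51 (adjusted p = 0.0022). Of 35 complex I subunits, none passed in either mutant or in the difference, where 3.75% of all genes passed. All but 1 had a negative effect in C10G58R, with a median of -0.22 there and -0.08 in C10S59L. The rise of Pfkp in C10G58R (2.26) was lost in 6 of 16 fits that left out 1 array, and the differences of these 5 genes in none.

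Among the genes that differed, those with a negative difference included Timp4, Fam214a and Tcap. Timp4, a cardiac inhibitor of matrix proteases, was 11.55, 11.94, 10.99 and 10.06 in C10G58R OMA1+/- and 9.21, 10.52, 7.95 and 9.53 in OMA1-/- hearts, which overlapped. In C10S59L it was 9.09, 8.58, 8.74 and 9.05 in OMA1+/- and 10.83, 11.31, 10.35 and 11.55 in OMA1-/- hearts, which did not. Timp4 fell by 1.83 ± 0.45 (adjusted p = 0.0362) and rose by 2.15 ± 0.45 (adjusted p = 0.0382), and its difference was -3.98 ± 0.64 (adjusted p = 0.00212). Fam214a fell by 0.93 ± 0.21 and rose by 1.01 ± 0.21 (adjusted p = 0.0247 and 0.0384). Tcap, telethonin of the sarcomere, was 13.78 to 14.54 in C10G58R OMA1+/- and 12.26 to 13.01 in OMA1-/- hearts, and 9.76 to 11.54 in C10S59L OMA1+/- and 11.78 to 13.30 in OMA1-/- hearts. Its groups were apart in both mutants and its difference was -3.09 ± 0.51 (adjusted p = 0.00244). Crhr2, a receptor of urocortins, differed by -3.16 ± 0.52 (adjusted p = 0.00235), and Ppm1k, the phosphatase that activates branched-chain amino acid breakdown, by -2.76 ± 0.42 (adjusted p = 0.0015). Syde2, Adam22, Noct and Gata6os differed by -2.64, -2.35, -2.18 and -2.04 (adjusted p = 0.00153 to 0.00956), and each had all 4 OMA1-/- hearts below the OMA1+/- hearts in C10G58R and above them in C10S59L. Ppargc1a, the coactivator PGC-1 alpha, was 15.56 to 16.23 in C10G58R OMA1+/- and 14.54 to 15.02 in OMA1-/- hearts, and 13.85 to 14.50 and 14.41 to 15.49 in the C10S59L groups, with a difference of -1.75 ± 0.32 (adjusted p = 0.00515). Without 1 array the fall of Timp4 was lost in 6 fits and its rise in 9, the fall and rise of Fam214a in 4 and 7, the fall of Tcap (1.59) in 5 and that of Ppargc1a (0.95) in 6, and no difference of these 10 genes was lost.

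Other negative differences included genes that passed in 1 mutant only, or in neither. Rpl3l, the muscle form of a ribosomal protein, was 10.63 to 10.90 in C10G58R OMA1+/- and 6.86 to 8.45 in OMA1-/- hearts, a fall of 3.03 ± 0.39 (adjusted p = 0.000521), whereas all 8 C10S59L hearts lay between 5.97 and 8.10 and no C10WT heart was below 11.53. Smco1 was 8.88 to 9.92 in C10G58R OMA1+/- and 5.78 to 8.46 in OMA1-/- hearts, and fell by 2.6 ± 0.57 (adjusted p = 0.0181), while all 4 C10S59L OMA1+/- hearts were below background. Rbfox1, a splicing factor of muscle and neurons, fell by 2.36 ± 0.41 in C10G58R (adjusted p = 0.00458), and its difference was -3.22 ± 0.58. Adh1, an alcohol dehydrogenase, rose by 2.75 ± 0.53 in C10S59L (adjusted p = 0.0294) and Spock2, a matrix proteoglycan, by 2.54 ± 0.43 (adjusted p = 0.0129). Their differences were -3.78 ± 0.75 and -3 ± 0.61 (adjusted p = 0.00873 and 0.00977). The rise of Adh1 did not pass with each mutant fitted alone or without the hearts high in adipocyte markers. Acaa2, a thiolase of fatty acid oxidation, differed by -1.60 ± 0.31 (adjusted p = 0.00709), with effects of -0.65 in C10G58R and 0.94 in C10S59L that did not pass. Rgs2, a regulator of G protein signalling, differed by -3.65 ± 0.78 (adjusted p = 0.0129), with effects of -1.84 and 1.81 that did not pass. The differences of Ccl21a, a chemokine of lymphatic vessels (-3.48, adjusted p = 0.0375), and Fam107a (-3.25, adjusted p = 0.0313) were lost in 11 and 7 of the 16 fits that left out 1 array, and the rises of Adh1 and Spock2 and the fall of Smco1 in 4, 2 and 4.

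**Figure D4:**
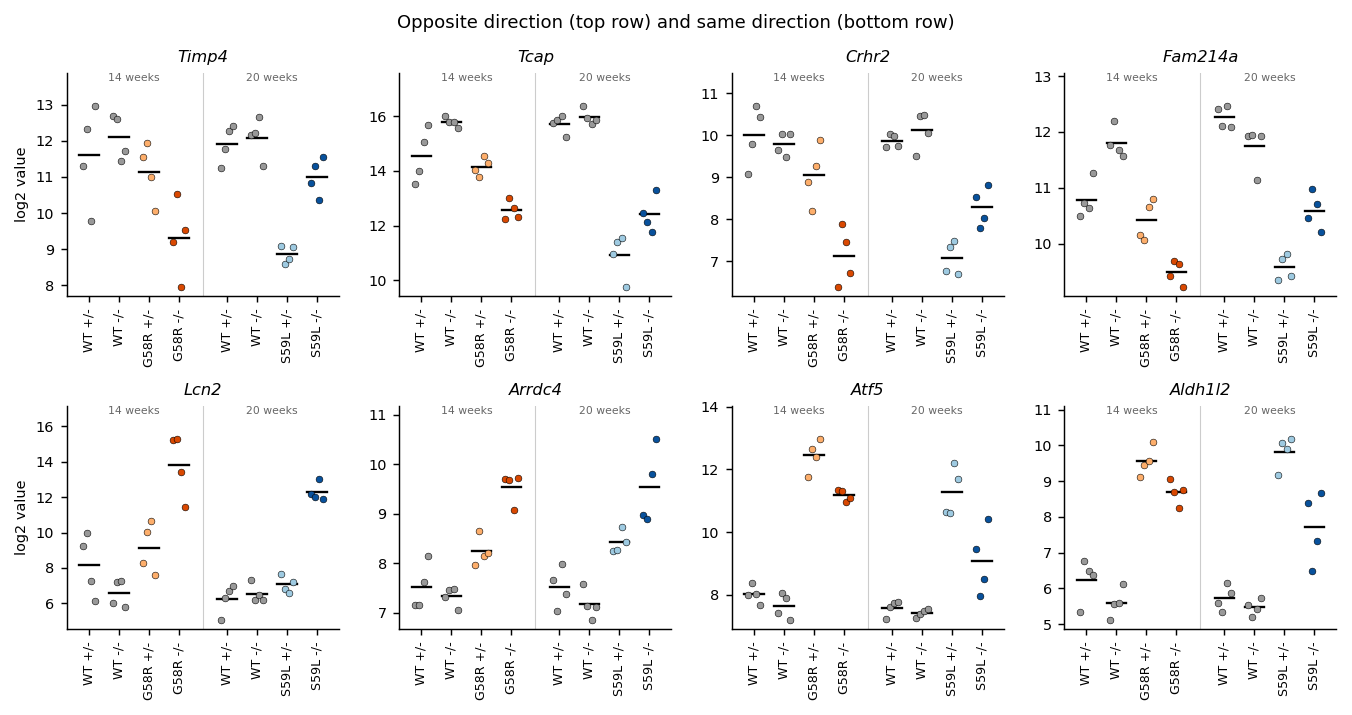
Log2 value of 8 genes on each of the 32 arrays (points) with group means (bars), by C10 and OMA1 genotype, 14-week hearts at the left and 20-week hearts at the right of each panel. In the top row the C10G58R OMA1-/- mean is below and the C10S59L OMA1-/- mean above that of the matching OMA1+/- hearts, and in the bottom row both OMA1-/- groups lie on the same side.

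Lcn2 was the 1 gene that passed in both mutants with the same sign. Its log2 value (it encodes lipocalin 2, a secreted binder of iron siderophores in inflammation) was 8.28, 10.05, 10.64 and 7.6 in C10G58R OMA1+/- and 15.21, 15.28, 13.40 and 11.46 in OMA1-/- hearts. The C10S59L values were 7.66, 6.80, 6.61 and 7.20 in OMA1+/- and 12.16, 12.00, 13.03 and 11.89 in OMA1-/- hearts, so both pairs of groups were apart, and C10WT hearts were at 5.07 to 10. Lcn2 rose by 4.69 ± 0.73 in C10G58R (adjusted p = 0.002), a 25.9-fold change, and by 5.20 ± 0.73 in C10S59L (adjusted p = 0.00306), a 36.8-fold change, and neither call was lost without any 1 array. The difference was -0.51 ± 1.03 (adjusted p = 0.87). In a contrast chosen after the values were seen, the mean of the 2 OMA1 effects, 74 genes passed (0.379%), 48 higher and 26 lower, and 1887 did so at an unadjusted p below 0.05. Of the 74, 62 had the same sign in both mutants and 27 also passed in the difference. Genes chosen for a large mean effect tend to share a sign by that choice, so the 62 describe the 74 genes only. Without the 4 hearts high in adipocyte markers, an alternative chosen after the data were seen, 20 genes passed in both mutants with the same sign and 23 with opposite signs, and the mean effect held 377 genes.

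By this mean effect, Vtn, vitronectin, was lower by 1.19 ± 0.16 (adjusted p = 0.00303) and Podxl, a sialomucin of vessels, by 1.04 ± 0.15 (adjusted p = 0.0048). Vtn was 10.41 to 11.05 in C10G58R OMA1+/- and 8.58 to 9.65 in OMA1-/- hearts, and 9.50 to 9.84 in C10S59L OMA1+/- and 8.63 to 9.25 in OMA1-/- hearts. Lcn2, Vtn and Podxl kept the call without any 1 array. Atf5, a transcription factor of the ISR, was lower by 1.73 ± 0.32 (adjusted p = 0.026) and Aldh1l2, a mitochondrial folate enzyme, by 1.49 ± 0.27 (adjusted p = 0.026). Atf5 was 11.76 to 12.97 in C10G58R OMA1+/- and 10.96 to 11.34 in OMA1-/- hearts, and 10.62 to 12.20 in C10S59L OMA1+/- and 7.96 to 10.43 in OMA1-/- hearts, and Aldh1l2 likewise had no overlap in either mutant. Both belong to the known ATF4 response, and their effects in C10G58R alone did not pass (adjusted p = 0.16 and 0.29). Cyp1b1, a cytochrome P450, Gpx3, an extracellular glutathione peroxidase, Arrdc4, an arrestin-like gene, and Rasa3, a RAS GTPase activator, were higher by 2.01 ± 0.38, 1.20 ± 0.21, 1.21 ± 0.21 and 0.70 ± 0.13 (adjusted p = 0.0219 to 0.0323). P2ry2, a nucleotide receptor, was lower by 0.93 ± 0.18 (adjusted p = 0.0316) and Arhgap24 higher by 0.77 ± 0.16 (adjusted p = 0.0426). Of the mean effects in this paragraph, those of Atf5, Aldh1l2, Cyp1b1, Gpx3, Arrdc4, Rasa3, P2ry2 and Arhgap24 were lost in 9, 8, 11, 6, 5, 11, 9 and 12 of 16 fits that left out 1 array. Gid4, Pdzrn3 and Marchf3 also had no overlap and the same direction in both mutants, with effects in C10G58R and C10S59L of -0.40 and -0.65, 0.62 and 0.79, and 1.19 and 0.68, of which only the rise of Marchf3 in C10G58R passed (adjusted p = 0.0383, lost in 10 fits).

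Other genes passed in C10G58R and had differences that missed the threshold. Pdk4, a kinase that holds back pyruvate oxidation, rose by 2.24 ± 0.51 (adjusted p = 0.0224) in C10G58R, and was 14.84 to 15.51 and 14.37 to 16.05 in the C10S59L groups, which overlapped. Hrc, which binds calcium in the sarcoplasmic reticulum, and Kcnj2, an inward rectifier potassium channel, fell by 2.15 ± 0.42 and 2.01 ± 0.44 (adjusted p = 0.00921 and 0.0195), and their C10S59L groups overlapped. The differences of Pdk4, Hrc and Kcnj2 had an adjusted p of 0.063, 0.11 and 0.062. The calls of Pdk4 and Kcnj2 were each lost in 3 of 16 fits.

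Markers of adipocytes and of atria varied widely within groups, and single hearts stood out by other markers, whose part in the results was not tested. In such bulk samples, fewer cells of a type and less RNA per cell cannot be told apart. The mean of 6 measured adipocyte markers was 7.54, 7.6, 6 and 6.23 in C10G58R OMA1+/-, 9.45, 6.26, 6.1 and 5.24 in C10G58R OMA1-/-, 12.21, 5.71, 4.61 and 7.76 in C10S59L OMA1+/- and 12.23, 13.78, 6.52 and 6.68 in C10S59L OMA1-/- hearts. Without the 4 hearts above 9, an alternative chosen after the data were seen, 411 genes differed between the mutants, and the differences of Acaa2, Noct, Ppargc1a, Rgs2, Timp1, Itgam, Atf4, Rcan1, Fam107a and Col8a1, among others, no longer passed. Lymphocyte markers averaged 8.08 in C10S59L OMA1-/- replicate 2 and no more than 5.78 in any other mutant heart. The 2 measured erythroid markers averaged 9.35 in C10S59L OMA1-/- replicate 3. Endothelial markers averaged 12.85 in that heart, against at most 11.75 in the rest of its group, but C10WT hearts were at 12.13 to 12.94. Without these 2 hearts 531 genes differed, and Atf4, Hspd1, Gadd45a, Rcan1 and Fam107a were among those lost. Scgb1a1, a marker of lung club cells, was at 15.67, 13.86, 18.49 and 10.84 in C10S59L OMA1+/- replicate 1 and OMA1-/- replicates 1, 2 and 3, while no other mutant heart was above 6.41. Atrial markers ranged from 10.47 to 17.73 over the 16 hearts, with overlap between the groups of each mutant, and none of the 6 passed.

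Macrophage markers moved with the opposite genes in part. Of 9 measured, 3 had a positive difference and 1 fell in C10S59L, against 2.83% and 0.559% of all genes. The medians were 0.58 in C10G58R and -0.95 in C10S59L. The list mean was 9.71 to 10.55 in C10G58R OMA1+/- and 10.44 to 11.02 in OMA1-/- hearts, and 11.48 to 12.34 in C10S59L OMA1+/- and 10.92, 10.53, 12.34 and 10.98 in OMA1-/- hearts, so both pairs overlapped. Adgre1, a surface receptor of macrophages, fell by 1.85 ± 0.27 in C10S59L (adjusted p = 0.00338), with a difference of 2.49 ± 0.38 (adjusted p = 0.0015), and Itgam, an integrin of myeloid cells, had a difference of 1.73 ± 0.39 (adjusted p = 0.0171).

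**Figure D5:**
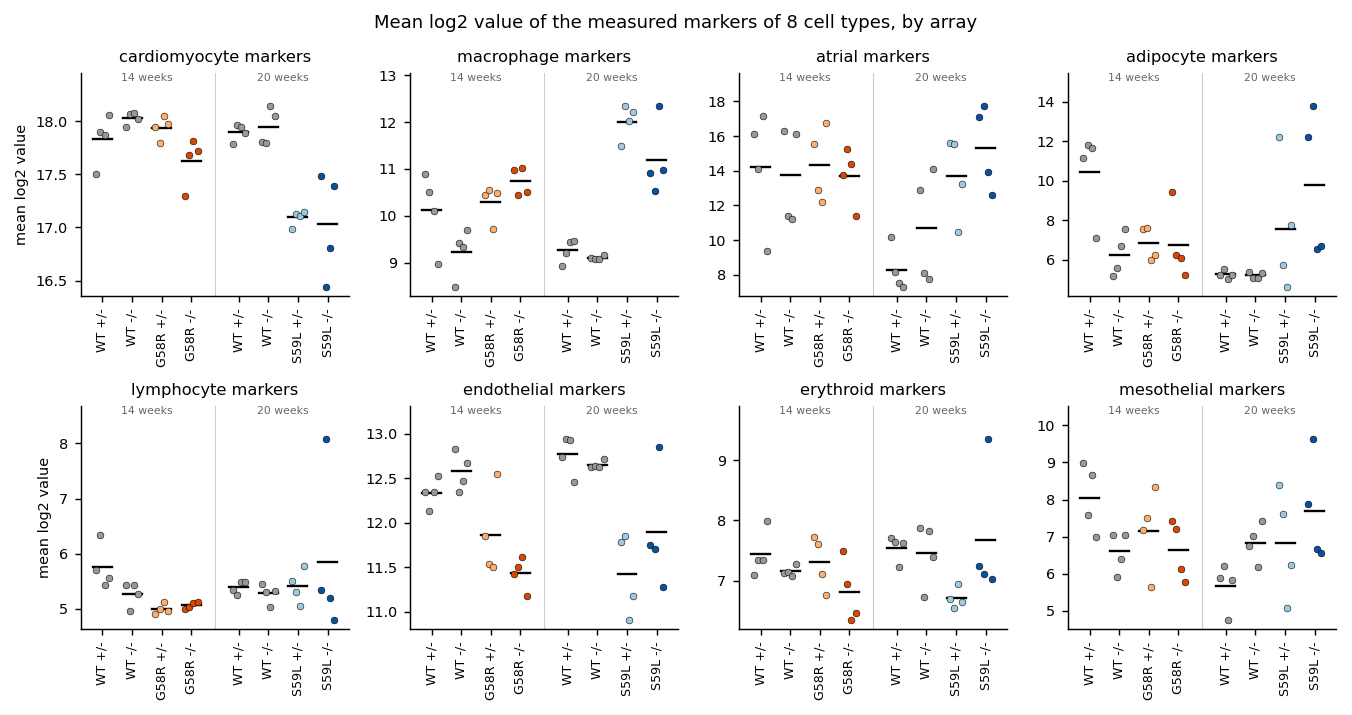
Mean log2 value of the measured markers of 8 cell types on each of the 32 arrays (points) with group means (bars), by C10 and OMA1 genotype, 14-week hearts at the left and 20-week hearts at the right of each panel. Adipocyte and atrial markers spread widely within groups, and single C10S59L OMA1-/- hearts stand out by lymphocyte or erythroid markers. By endothelial markers 1 C10S59L OMA1-/- heart lies above its group but within the range of the C10WT hearts.

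In C10WT hearts OMA1 loss moved few genes by the same test fitted over all 32 arrays: none passed at 14 weeks (2284 at an unadjusted p below 0.05) and 3 at 20 weeks (1153 unadjusted). Adipocyte markers averaged 11.13, 11.8, 11.64 and 7.12 in the 14-week C10WT OMA1+/- hearts and 5.17 to 7.55 in the OMA1-/- hearts. At 20 weeks they were at 5.02 to 5.53 and 5.07 to 5.37. Their part in the C10WT effects, and in the values taken relative to C10WT, was not tested. When each mutant's OMA1 effect was taken relative to that of the C10WT hearts of its cohort, 471 genes differed between the mutants. Of the 732 genes, 356 passed in that comparison too and 731 kept the sign. The difference relative to C10WT was 3.32 for Inhba (adjusted p = 1.67e-05), 8.28 for Nmrk2 (adjusted p = 0.000327), 3.37 for Yars (adjusted p = 0.000294), 4.50 for Aldh18a1 (adjusted p = 0.000304) and 5.73 for Sfrp2 (adjusted p = 0.000324). For Tcap it was -4.06 (adjusted p = 0.00215) and for Timp4 -4.34 (adjusted p = 0.0183). The difference no longer passed relative to C10WT for Acaa2, Adam22, Adh1, Ccl21a, Chchd10, Col8a1, Fam107a, Gata6os, Hspd1, Hspe1, Lonp1, Mthfd1l, Noct, Rcan1, Rgs2, Spock2, Sqstm1 and Tnc. Their adjusted p ran from 0.066 for Rcan1 to 0.56 for Rgs2, and each kept its sign.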

How the data were processed

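RNA from 32 mouse hearts was hybridised to 1-colour gene expression arrays, 1 array per heart. According to the deposited value table and the study's methods, the authors summarised the intensities to gene-level log2 values by signal space transformation with robust multiple-array averaging in Transcriptome Analysis Console, and these log2 values were used as deposited. Whether the 2 age cohorts were normalized together, and slides and scan dates, are not given in the sources used here. Intensities carry no read depth, and precision is set by the 4 arrays of each group. Of 28846 probe sets, 6640 controls and 2634 without a symbol were left out. For 55 genes with several probe sets the one with the highest mean over the arrays was kept, which left 19505 genes.

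The 16 mutant arrays were fitted with limma 3.58.1 (R 4.3.3; lmFit, eBayes) as 4 group means with no covariate, and contrasts were tested two-sided with Benjamini-Hochberg adjustment over all genes at 0.05. Errors are standard errors of the fit. The replicates were separate animals, 3 females and 1 male in C10G58R OMA1+/- and 2 females and 2 males in each other mutant group. The background was the 95th percentile of the mean of olfactory and vomeronasal receptor genes, and with all 4 arrays of a group below it a change is given as "at least", against that level. The members and the gene lists were chosen with earlier results of these data known. Named genes were the 10 largest positive and 10 largest negative differences, the 8 strongest of each opposite or same class (of the rule on single arrays where fewer than 5 passed the test), up to 4 members of each list by the p of the difference, and fixed genes of the pathway. Predicted genes and those below background were left out. The remaining genes among the 29 called in opposite directions are named to complete that count. The scripts were tested on simulated data. Alternatives were all 32 arrays, each mutant alone, sex, adipocyte markers or replicate number as covariates, 2 other scalings, a filter on low values, other variance models, and each array left out.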

Additional observations from a re-analysis of the deposited data

Results flagged for a closer look

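The OMA1 effect of 732 genes differed between C10G58R and C10S59L by the test of the difference itself. Among 93 named genes, 372 groups of 4 hearts were examined for a heart far from the other 3, and 13 had one, where chance gives about 1 in 20. In C10G58R OMA1-/- hearts, Abcc4 was 11.68 in replicate 3 against 10.17 to 10.39 in the others, Arrdc4 was 9.07 in replicate 3 against 9.68 to 9.72, Slc7a3 was 12.23 in replicate 1 against 11.23 to 11.37, and Trib3 was 8.13 in replicate 2 against 10.04 to 10.35. In C10G58R OMA1+/- hearts, Gid4 was 11.31 in replicate 1 against 11.49 to 11.53, Pgam1 was 11.08 in replicate 2 against 10.23 to 10.28, Podxl was 10.6 in replicate 3 against 10.01 to 10.07, and Smco1 was 8.88 in replicate 3 against 9.81 to 9.92. In C10S59L OMA1-/- hearts, Acta1 was 11.79 in replicate 4 against 13.06 to 13.23, Myc was 8.08 in replicate 3 against 9.6 to 9.85, and Shmt2 was 8.3 in replicate 2 against 9.64 to 9.9. In C10S59L OMA1+/- hearts, Asns was 15.49 in replicate 1 against 15.98 to 16.01, and Meox1 was 8 in replicate 2 against 9.14 to 9.35.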

How the results depend on the processing

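The difference between the mutants held 732 genes, the OMA1 effect 548 in C10G58R and 141 in C10S59L, with 29 opposite, 1 the same and 74 by the mean effect. With array weights the difference held 1240 genes and the C10G58R effect 1137, and relative to C10WT the difference held 471. With each mutant fitted alone C10G58R held 914, C10S59L 14 and the opposite set 1. The falls of Aldh18a1, Asns, Atf4, Gars, Comtd1, Lonp1, Hspd1 and Adgre1 in C10S59L, among others, did not pass in that setting. With all 32 arrays C10S59L held 284, the opposite set 66, the same set 5 and the mean effect 159. With median-centred arrays the opposite set was 18, above background 47, and with sex as a covariate the same set was 2. With adipocyte markers as a covariate the same set was 4 and the mean effect 159. Without 1 array the counts were 448 to 1245 for the difference, 249 to 797 in C10G58R, 24 to 263 in C10S59L, 5 to 69 opposite, 1 to 6 the same and 21 to 149 by the mean effect. In C10G58R the lowest were 249 without OMA1-/- replicate 1 and 282 without OMA1+/- replicate 4. Replicate numbers did not pair the samples: deviations of same-numbered hearts correlated at -0.111 to 0.114 in C10G58R and -0.012 to 0.167 in C10S59L, and 2 of 8 hearts correlated best with their own number. With the replicate block C10S59L held 93 genes, the opposite set 18 and the mean effect 41. Alternatives chosen after seeing the data left out hearts by their markers. Without the 4 hearts high in adipocyte markers the difference held 411, C10S59L 296, the opposite set 23, the same set 20 and the mean effect 377, and the Timp1 effect in C10S59L turned from -1.33 to 0.18. Without C10S59L OMA1-/- replicates 2 and 3 C10G58R held 929, C10S59L 9, the opposite set 2, the same set 0 and the mean effect 40. The cause of these shifts was not tested. Among the 93 named genes whose effects were followed through these alternatives, no other value reversed. The remaining named genes were not followed. Background correction was not varied, since scanner files were not used here, and the number of arrays limits the precision.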
